A study of Mus musculus with 4 samples.

Results

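The Wnt ligands, their Frizzled receptors, the co-receptors Lrp5 and Lrp6 and the secreted inhibitors of the Sfrp and Dkk families were followed across 4 microarrays of Ras-transformed mouse fibroblasts. With earlier results of these data known, the genes were chosen by a rule on their symbols. Every probe set annotated to Wnt, Fzd, Sfrp or Dkk genes with a number or to Lrp5 and Lrp6 was taken. This gave 39 of 18193 genes on the array, with 76 probe sets: 19 ligands, 10 Frizzled receptors, 2 co-receptors and 8 secreted inhibitors. The cells were mouse embryonic fibroblasts (MEF), either p65+/+ or p65-/-, that is with or without Rela, the gene for the NF-kB subunit p65. All of them, controls included, had been infected with the retroviral vector pBabe-HRASG12V-Hygro and so carried oncogenic HRAS (G12V) and a hygromycin resistance gene. Of each genotype, 1 array held RNA of cells in culture before injection into SCID mice, which lack mature lymphocytes (p65+/+ Ras and p65-/- Ras pre-injection cells), and 1 array held RNA of cells freed from a tumour by collagenase, put back into culture and kept in hygromycin for 2 weeks (p65+/+ Ras and p65-/- Ras tumour cells). The sources used here do not give how many clones, mice or tumours an array represents. Each group had 1 array, so no test and no replicate check could be made. Higher and lower therefore describe the ratio of 2 arrays, and genotype and cell line cannot be told apart.

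Wnt proteins are secreted lipid-modified ligands that bind Frizzled receptors. With the co-receptors Lrp5 or Lrp6 they stop a destruction complex from breaking down beta-catenin, which then acts with Tcf and Lef factors on target genes. Other ligands, with Wnt5a the best known in fibroblasts, act mainly without beta-catenin, on cell polarity and movement. Sfrp proteins bind the ligands themselves, and some Dkk proteins, Dkk2 among them, bind the co-receptors. Genes were placed among the inhibitors by family name alone, so the role does not say that Dkk3 binds a co-receptor.

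Each value is the signal deposited by the authors for a probe set, in arbitrary units, and a gene is represented by its probe set with the highest mean signal. The floor was the median signal of each array, between 87.8 and 93.4, and is not a detection call. Genes under the floor on both arrays of a comparison were left out of it. Where only 1 array fell short, the floor took the place of its signal, and such a fold carries the words "at least". Rela gave 1479 and 1457 on the p65+/+ arrays and 214 and 209 on the p65-/- arrays, pre-injection cells first. The p65-/- pre-injection array stood apart from the other 3: 11153 of its probe sets reached a signal of 200, compared with 13015 to 13419 on the others, and its log2 signals had correlations of 0.77 to 0.86 with the other arrays over 12922 genes, which are not independent replicates. The 3 correlations among the other arrays ranged from 0.88 to 0.97. Of 10 fibroblast markers, all reached the floor in p65+/+ cells, but the proteoglycan gene Dcn lay under it in both p65-/- arrays, at 59.4 and 42.6. Before injection 3 of the 10 were lower in p65-/- cells by 2-fold or more, beside 18.3% of all genes. In tumour cells 4 were lower and 2 higher, beside 5.65% and 2.76%. Thy1 was 12.7-fold and 2.43-fold lower in these 2 states, and Pdgfra 3.42-fold and 4.01-fold. Col1a1 and Fn1 were 2.91-fold and 2.37-fold higher in p65-/- tumour cells. Of 7 macrophage genes, 2 reached the floor, Csf1r on all 4 arrays and Tyrobp on the p65-/- tumour array alone, at 278. The other macrophage genes, among them Adgre1, Ptprc and Itgam, and 5 of 6 endothelial genes stayed under the floor on all 4 arrays. Of 6 epithelial genes, Cdh1, Krt14 and Epcam did so too in the probe sets that stand for them, while those of Krt5, Krt8 and Krt18 reached it on p65-/- arrays only. Each array serves in 2 of the 4 comparisons, so these are not independent.

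Of the 39 genes, 29 reached the floor on at least 1 array and 26 on all 4. The other 10 were under it throughout, with signals of 15.9 to 79.3: the ligands Wnt2, Wnt2b, Wnt3, Wnt11 and Wnt16, the receptor Fzd9, the co-receptor Lrp5 and the inhibitors Dkk1, Dkk4 and Sfrp2. A difference of 2-fold or more was seen for 9 genes in at least 1 comparison, namely Wnt5a, Wnt7b, Fzd1, Fzd2, Fzd6, Lrp6, Dkk2, Dkk3 and Sfrp5. The remaining 20 differed by at most 0.67 on the log2 scale in every comparison. For all genes, the share past 2-fold in at least 1 comparison was not computed, so the count of 9 has no background here. Shares for single comparisons are given below.

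**Figure D1:**
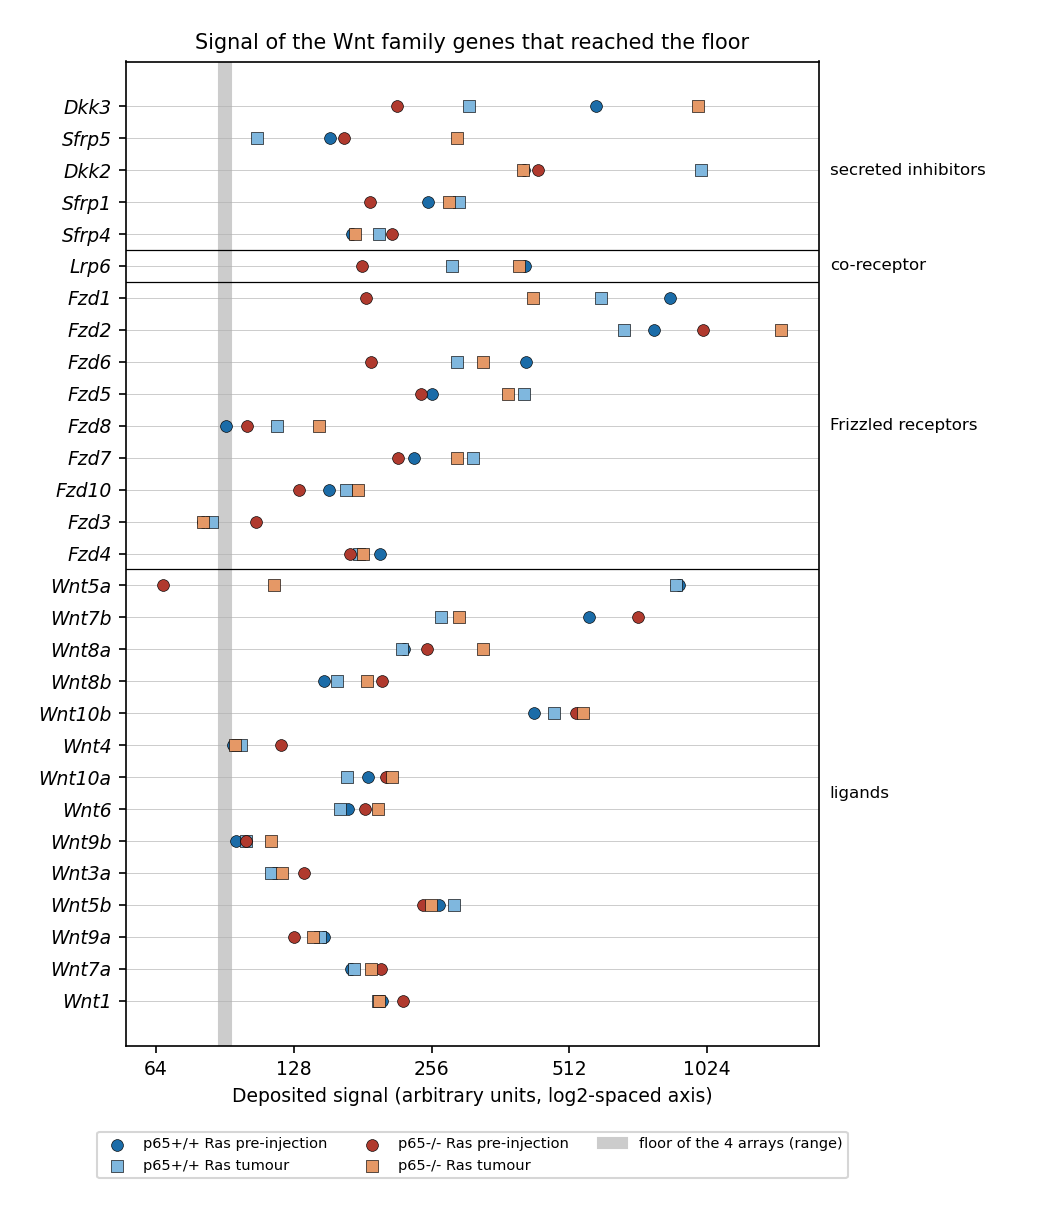
Deposited signal (arbitrary units, log2-spaced axis) of the 29 Wnt family genes that reached the floor, by role, with 1 point per array and the range of the 4 floors shaded. Wnt5a separates the genotypes, with the p65+/+ points at 891 and 874 and both p65-/- points at 66.3 and 116, while most other ligands keep their 4 points close together.

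In p65+/+ cells, 1 of 28 compared genes was higher in tumour cells, Dkk2, where 0.999% of all 11817 compared genes were, and 1 was lower, Wnt7b, where 0.787% of all genes were. In p65-/- cells, 3 of 29 were higher in tumour cells (Dkk3, Fzd1 and Lrp6), or 10.3% beside 14.0% of all 12546 genes, and 1 was lower, Wnt7b, beside 1.53% of all genes. Before injection, 5 of 29 were lower in p65-/- than in p65+/+ cells (Wnt5a, Fzd1, Dkk3, Lrp6 and Fzd6), which is 17.2% beside 18.3% of all 12695 genes, and 0 were higher beside 2.14%. The shares of genes higher in p65-/- tumour cells and lower in p65-/- pre-injection cells were thus near those of the array as a whole. In tumour cells, 3 of 28 were higher in p65-/- than in p65+/+ cells (Dkk3, Sfrp5 and Fzd2), or 10.7% beside 2.76% of all 12096 genes, and 2 were lower (Wnt5a and Dkk2), or 7.14% beside 5.65%. The median log2 differences of the compared members were -0.02, 0.14, 0.11 and 0.11 in the order of these comparisons, and those of all genes -0.01, 0.04, -0.02 and 0.01. For the p65-/- tumour change, 1 member remained higher after quantile normalization, 75th percentile scaling or cyclic loess, namely Dkk3, where Fzd1 was 0.92 to 0.99 and Lrp6 0.85 to 0.99 on the log2 scale. The second of the member medians changed sign, to -0.04 after quantile normalization and -0.15 after scaling to the 75th percentile, settings that moved the median of all genes to -0.18 and -0.25.

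**Figure D2:**
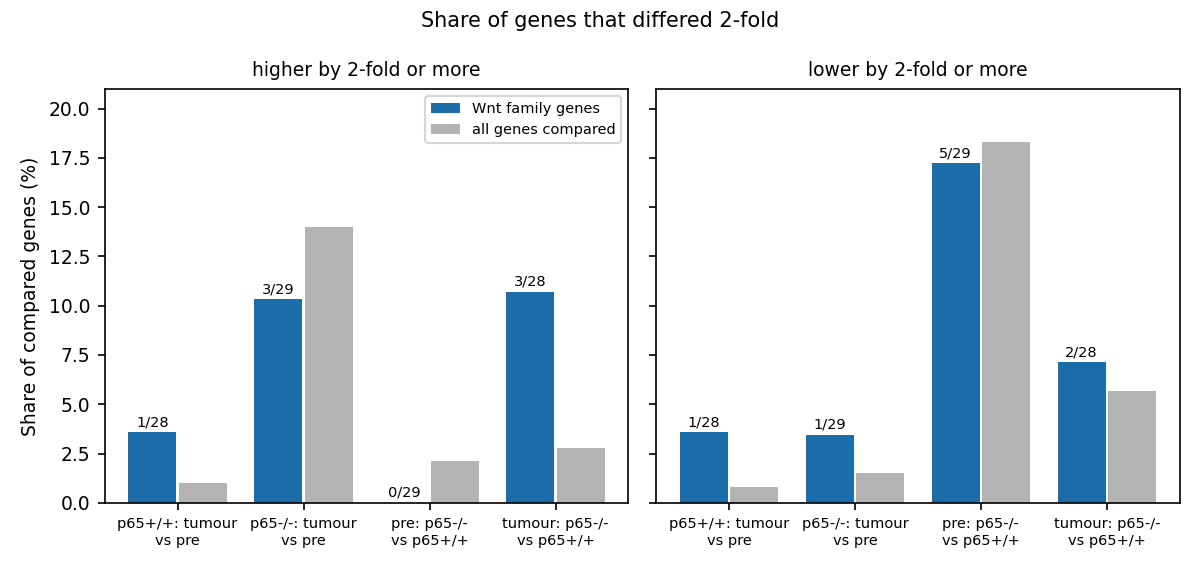
Share of compared genes (%) that were higher (left) or lower (right) by 2-fold or more in each of the 4 comparisons, for the Wnt family genes (blue, with counts) and all genes compared (grey). The 2 tallest grey bars, 14.0% and 18.3%, belong to comparisons that use the p65-/- pre-injection array, and the blue bars beside them reach 10.3% and 17.2%.

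Among the ligands, Wnt5a had the largest difference. Its signal was 891 in p65+/+ pre-injection and 874 in p65+/+ tumour cells, and 66.3 in p65-/- pre-injection and 116 in p65-/- tumour cells. Both p65+/+ arrays lay far above both p65-/- arrays, and they were 1.02-fold apart. Wnt5a was at least 10.2-fold lower in p65-/- cells before injection, where the p65-/- array lay under its floor, and 7.55-fold lower in tumour cells. In order of decrease it ranked 48 of 12695 genes before injection and 47 of 12096 in tumour cells. A second Wnt5a probe set gave 506, 467, 47.5 and 71.6 in the same order of arrays, at least 5.77-fold lower before injection and at least 5.03-fold lower in tumour cells. A further probe set gave 173, 140, 14.4 and 23.0, and its bounds of at least 1.97-fold and 1.51-fold did not reach 2-fold. The last stayed under the floor on all arrays. Setting the p65-/- tumour array against p65+/+ pre-injection cells mixes genotype with tumour state and was added once the data were known. There Wnt5a was 7.70-fold lower and was the only member past 2-fold. In these bulk samples fewer expressing cells and less RNA per cell cannot be told apart. The mouse Wnt5a gene lies on chromosome 14 (GRCm38, 28504543 to 28527448).

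Wnt7b, a ligand that signals through beta-catenin in several tissues, was lower in tumour cells of both genotypes and stayed under 2-fold between genotypes. Its signal was 567 and 722 in p65+/+ and p65-/- pre-injection cells and 269 and 294 in p65+/+ and p65-/- tumour cells. Both tumour arrays lay under both pre-injection arrays. It was 2.11-fold lower in p65+/+ tumour cells and 2.45-fold lower in p65-/- tumour cells, and it was the only member past 2-fold in the same direction in both genotypes. In order of decrease it ranked 81 of 11817 and 101 of 12546 genes. Its other probe set gave 281 and 387 before injection and 67.9 and 92.1, under the floor, in tumour cells, a decrease of at least 3.03-fold in p65+/+ and at least 4.18-fold in p65-/- cells. These 2 changes come from separate pairs of arrays. Wnt7b lies on chromosome 15 (GRCm38, 85535437 to 85581821).

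The other 12 compared ligands were flat. Their signals ranged from 94.3 to 547.6, and the highest array of a gene exceeded its lowest by 1.13-fold to 1.503-fold, with the greatest log2 difference, 0.59, for Wnt8a in p65-/- against p65+/+ tumour cells. Wnt10b, a ligand known to hold back fat cell formation, gave 429 before injection and 474 in tumour cells of the p65+/+ genotype, and 530.5 and 548 in p65-/- cells. Wnt5b, the closest paralog of Wnt5a, gave 266 and 287 in p65+/+ cells and 245 and 255 in p65-/- cells, log2 differences of -0.12 before injection and -0.17 between tumour cells. Its second probe set, of a kind that can detect related transcripts, went the other way, by 0.51 and at least 0.43. Whether flat signals of this size stand for transcripts was not tested. Of 5 muscle genes, which mark another cell type, Myod1, Des, Acta1 and Ckm also reached the floor on all 4 arrays. Their signals were 135 to 211.5, and Myog stayed under the floor throughout.

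Among the Frizzled receptors, the 7-pass membrane proteins that bind the ligands, Fzd1 had the largest difference. Its signal was 851 in p65+/+ pre-injection and 599 in p65+/+ tumour cells, and 184 in p65-/- pre-injection and 426 in p65-/- tumour cells. The p65-/- pre-injection array was the lowest, and both p65+/+ arrays were above both p65-/- arrays. Fzd1 was 4.62-fold lower in p65-/- cells before injection and 2.31-fold higher in p65-/- tumour than in p65-/- pre-injection cells, a change under 2-fold after 3 of the 4 rescalings. In tumour cells the genotypes differed by 1.41-fold. In p65-/- tumour against p65+/+ pre-injection cells its log2 difference was -0.997, just short of 2-fold. Its other probe set ran from 93.2 to 129 over the 4 arrays and did not pass 2-fold in any comparison.

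Fzd2, a receptor that can bind Wnt5a, went the other way. It gave 784 before injection and 673 in tumour cells of the p65+/+ genotype, and 1001 and 1489.7 in p65-/- cells, and both p65-/- arrays were above both p65+/+ arrays. In tumour cells it was 2.21-fold higher in p65-/- than in p65+/+ cells, and before injection 1.28-fold. The probe set used can also detect related transcripts, by its suffix, but the other 2 probe sets of Fzd2 were 2.32-fold and 3.04-fold higher in p65-/- tumour cells. Before injection these 2 were only 1.09-fold and 1.01-fold higher in p65-/- cells. From p65-/- pre-injection to p65-/- tumour cells they were 1.74-fold and 2.63-fold higher, and the probe set used 1.49-fold. Fzd6, a receptor known for its part in planar cell polarity, gave 413 and 290.4 in p65+/+ cells and 189 and 332 in p65-/- cells, pre-injection first. Only the p65-/- pre-injection array stood clearly below the rest. Fzd6 was 2.19-fold lower in p65-/- cells before injection in 1 of its 2 compared probe sets, and 1.14-fold higher in tumour cells.

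Of the remaining Frizzled genes, Fzd3, Fzd4, Fzd5, Fzd7, Fzd8 and Fzd10 stayed under 2-fold in all comparisons. Fzd5 had the largest change among them, with 257 and 243 in p65+/+ and p65-/- pre-injection cells and 408 and 376 in the tumour cells. Both tumour arrays were above both pre-injection arrays, by 1.59-fold and 1.55-fold. Fzd7 showed the same order, at 235 and 216 before injection and 315 and 292 in tumour cells. The second probe sets did not follow: their log2 changes in p65+/+ and p65-/- cells were 0.07 and -0.23 for Fzd5 and 0.14 and -0.01 for Fzd7. Across the array, probe sets of the same gene had a spread of 0.19 and 0.40 around each other in these changes (SD of log2 differences over 5222 and 5415 genes), a spread within arrays and not between samples.

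Lrp6, the co-receptor of the beta-catenin branch, gave 410.3 before injection and 284 in tumour cells of the p65+/+ genotype, and 180.4 and 398 in p65-/- cells. The p65-/- pre-injection array was again the lowest and the p65-/- tumour array close to p65+/+ pre-injection cells. Lrp6 was 2.27-fold lower in p65-/- cells before injection and 2.20-fold higher in p65-/- tumour than in p65-/- pre-injection cells, the latter under 2-fold after 3 of the 4 rescalings. Its second probe set gave 1.83-fold and 1.73-fold in the same directions. In p65-/- tumour against p65+/+ pre-injection cells the log2 difference of Lrp6 was -0.05, and that of Fzd6 was -0.31. Lrp5 stayed under the floor, at 44.3 to 62.5.

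Of the 8 secreted inhibitors, 5 reached the floor and Dkk2, Dkk3 and Sfrp5 passed 2-fold in some comparison. Dkk3, the most divergent Dickkopf protein, often silenced in cancers, gave 587 in p65+/+ pre-injection and 309 in p65+/+ tumour cells, and 215 in p65-/- pre-injection and 979 in p65-/- tumour cells. Its order by genotype was opposite in the 2 states. It was 2.73-fold lower in p65-/- than in p65+/+ cells before injection, and 3.17-fold higher in tumour cells. From pre-injection to tumour cells it was 1.90-fold lower in p65+/+ and 4.55-fold higher in p65-/- cells. The second Dkk3 probe set, at 360, 197, 131 and 633, gave log2 differences within 0.10 of these in each comparison. In p65-/- tumour against p65+/+ pre-injection cells the sign turned, and Dkk3 was 1.67-fold higher.

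Dkk2, which binds Lrp6 and can inhibit or weakly activate the pathway depending on the cell, had a single high array. It gave 407 in p65+/+ pre-injection, 992 in p65+/+ tumour, 438 in p65-/- pre-injection and 406 in p65-/- tumour cells. It was 2.44-fold higher in p65+/+ tumour than in p65+/+ pre-injection cells, and 2.44-fold lower in p65-/- than in p65+/+ tumour cells, 2 differences that rest on the same p65+/+ tumour array. Dkk2 had 1 probe set, so no second measurement was at hand. Sfrp5, a decoy that binds Wnt ligands, gave 154 before injection and 107 in tumour cells of the p65+/+ genotype, and 164 and 290.4 in p65-/- cells. The p65-/- tumour array was the highest, and Sfrp5 was 2.72-fold higher there than in p65+/+ tumour cells. Its other probe set gave 74.2 to 87.9 and reached the floor on the p65-/- pre-injection array alone.

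Sfrp1, a further decoy, gave 252, 294, 188 and 280.2 across p65+/+ pre-injection, p65+/+ tumour, p65-/- pre-injection and p65-/- tumour cells and stayed under 2-fold. Its probe sets disagreed: of 4 compared before injection, 3 were higher and 1 was lower in p65-/- cells, with log2 differences from -0.42 to 0.62. Sfrp4 ranged from 171 to 210.3 and stayed under 2-fold. Beside the genes that were high in p65-/- tumour cells, the macrophage adaptor gene Tyrobp gave 278 on that array and 55.2 to 63.7 on the others. The summed signal of 7 macrophage markers, Tyrobp included, was 810 there and 548 to 649 elsewhere. Cd68 gave 50.3 there and 47.6 to 82.7 elsewhere, Ptprc 59.4 and 80.1 to 85.1, and Lyz2 70.4 and 62.3 to 77.2. Itgam gave 47.5 there and 42.1 to 48.0 elsewhere, and Adgre1 61.2 and 55.3 to 58.1. Only 2 of these 7 markers reached the floor, Csf1r on all arrays and Tyrobp there, with Csf1r varying from 198 to 243. The epithelial keratin gene Krt18 was also high on the p65-/- tumour array, at 127 against 30.7 to 39.3 elsewhere. The summed signal of the 6 epithelial markers, Krt18 included, was 448 there and 341 to 385 elsewhere. Epcam, Cdh1 and Krt14 had their lowest signal on that array, at 50.9, 37.5 and 33.2. Krt5 gave 106 there and 91.3 to 96.5 elsewhere, and Krt8 93.8 and 67.9 to 94.3. The part of these markers in the Dkk3, Fzd2 and Sfrp5 values was not tested.

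**Figure D3:**
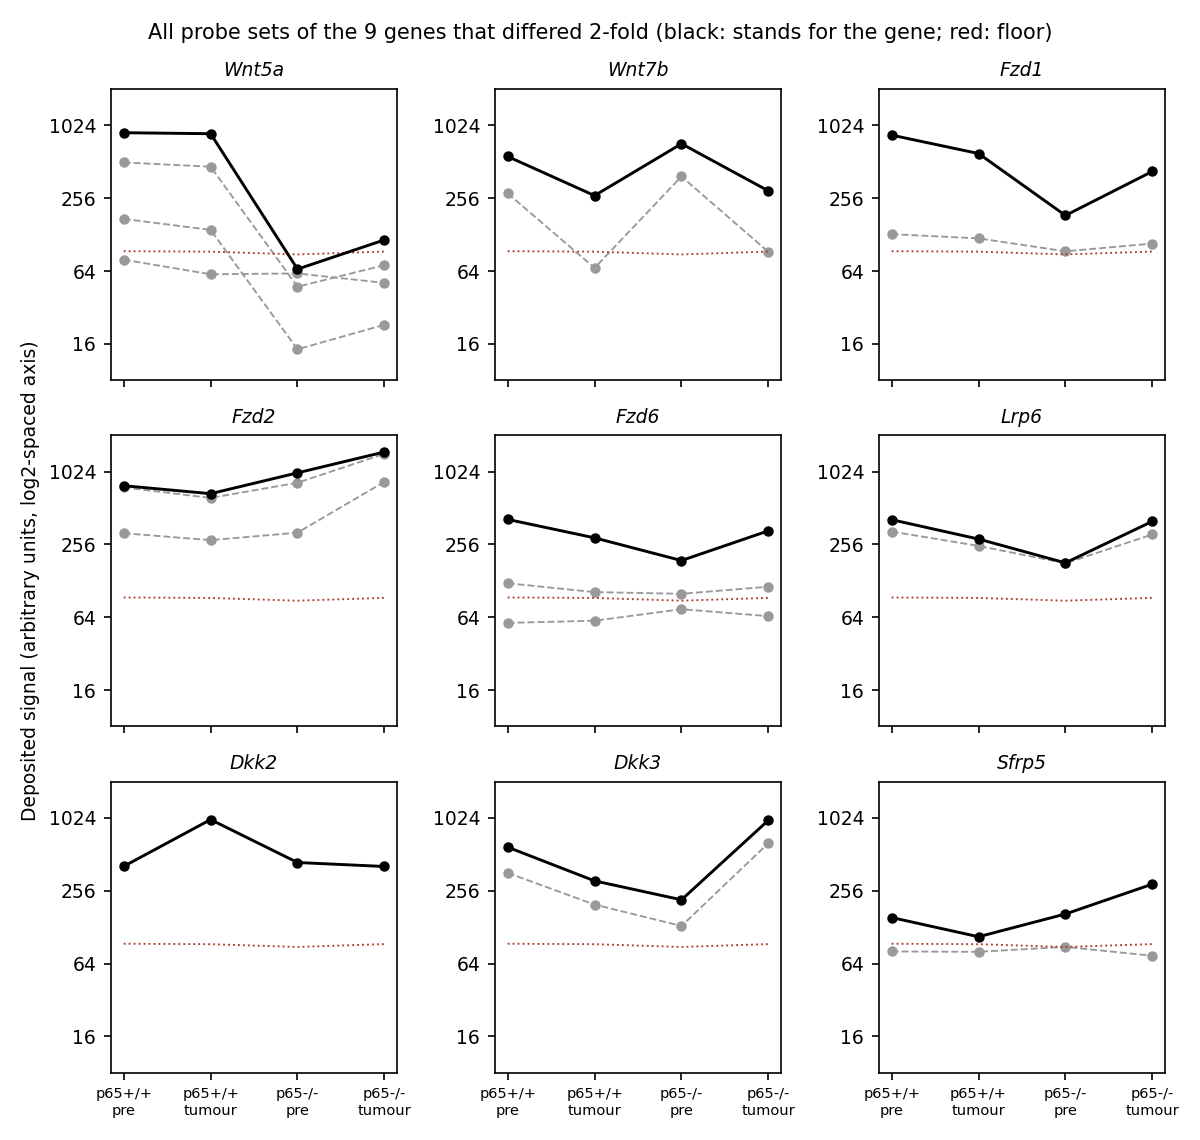
Deposited signal (arbitrary units, log2-spaced axis) of every probe set of the 9 genes that differed 2-fold, on the 4 arrays, with the probe set that stands for the gene in black, other probe sets in grey and the array floors in red. The 2 probe sets of Dkk3 and the 3 of Fzd2 run in parallel, while Fzd1, Fzd6 and Sfrp5 each have a weak probe set that stays near or under the floor.

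The change from pre-injection to tumour cells was then compared between the genotypes. The p65-/- change exceeded the p65+/+ change by 1 or more on the log2 scale for 5 of 29 members, 17.2% beside 14.7% of all 12922 genes: Dkk3 by 3.11, Fzd1 by 1.72, Lrp6 by 1.67, Sfrp5 by 1.35 and Fzd6 by 1.32. It was smaller by 1 or more for 1 member, Dkk2, at -1.39, beside 2.71% of all genes. The first 5 genes were lower in p65+/+ tumour cells, by 0.51 to 0.93 on the log2 scale, and higher in p65-/- tumour cells, by 0.82 to 2.18. Of these, Fzd1, Lrp6, Fzd6 and Dkk3 had their lowest signal on the p65-/- pre-injection array, and Sfrp5 did not. In second probe sets the p65+/+ and p65-/- changes were -0.87 and 2.28 for Dkk3 and -0.39 and 0.79 for Lrp6. They were smaller for Fzd1, at -0.12 and 0.21, and for Fzd6, at -0.24 and 0.19. That of Sfrp5 was under the floor in p65+/+ cells. The difference of the tumour changes was not tested, and no second array of p65-/- pre-injection cells was at hand to replace the first.

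**Figure D4:**
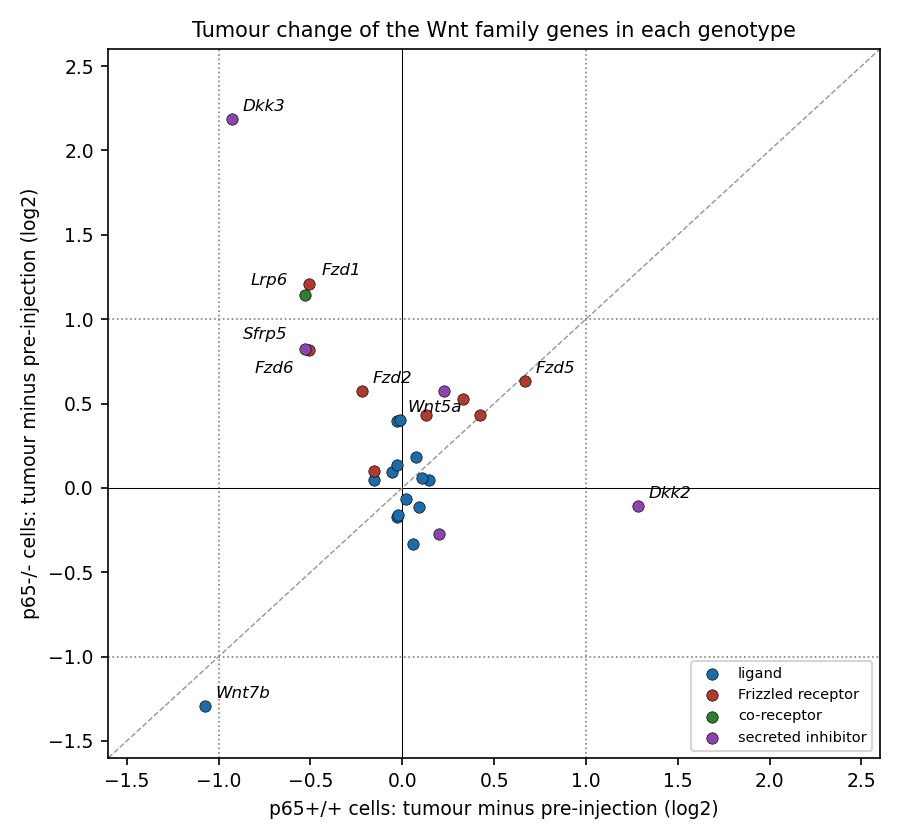
Log2 difference of tumour minus pre-injection cells in p65+/+ (horizontal) and p65-/- cells (vertical) for the 28 genes compared in both, coloured by role, with dotted lines at 2-fold and a dashed line of equal change. Wnt7b lies near the dashed line at -1.07 and -1.29, Dkk2 stands alone at the right, and Dkk3, Fzd1, Lrp6, Sfrp5 and Fzd6 form the upper left group.

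For the promoters, RefSeq sequences of the GRCm38.p6 build, 250 bases before to 50 after a start site, were at hand for 25 of the 39 genes, with 28 start sites. Since p65 binds DNA at the kB consensus motif, that motif was searched on both strands, and so was CTTTGAT, a core to which Tcf and Lef factors bind. The kB consensus was found at 2779 of 32851 mouse promoters, or 8.46%, and at 4 of the 28 member promoters, those of Wnt10b, Wnt16, Fzd5 and Sfrp2. CTTTGAT was found in 3.73% of all promoters and in 2 of the members', Wnt11 and Wnt5b. Of the 9 genes that differed 2-fold, Fzd1, Dkk2 and Sfrp5 had an entry, and neither motif was present in those windows. They are shown beside the Wnt10b promoter, which holds the kB consensus at positions -204 and -40 from the start site (capitals) and whose signal was flat. Of the other members with that motif, Fzd5 was 1.59-fold and 1.55-fold higher in p65+/+ and p65-/- tumour cells. Wnt16 and Sfrp2 stayed under the floor. No entry was at hand for Wnt5a, Wnt7b, Fzd2, Fzd6, Lrp6 or Dkk3, and a link between motif and signal was not tested. A match describes letters and not a bound site.
Fzd1, chr5:4758167-4758466, minus strand: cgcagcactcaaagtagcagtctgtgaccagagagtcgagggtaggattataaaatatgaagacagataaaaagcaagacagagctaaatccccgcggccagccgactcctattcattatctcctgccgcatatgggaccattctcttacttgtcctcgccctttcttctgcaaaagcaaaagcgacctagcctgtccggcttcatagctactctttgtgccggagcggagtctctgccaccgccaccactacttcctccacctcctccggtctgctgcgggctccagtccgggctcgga
Dkk2, chr3:132085042-132085341, plus strand: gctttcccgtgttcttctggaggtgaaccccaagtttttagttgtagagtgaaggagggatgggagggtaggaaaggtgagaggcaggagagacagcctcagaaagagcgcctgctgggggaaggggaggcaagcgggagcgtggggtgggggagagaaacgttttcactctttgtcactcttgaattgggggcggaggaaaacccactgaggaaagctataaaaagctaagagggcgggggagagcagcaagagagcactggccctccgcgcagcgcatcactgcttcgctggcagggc
Sfrp5, chr19:42202203-42202502, minus strand: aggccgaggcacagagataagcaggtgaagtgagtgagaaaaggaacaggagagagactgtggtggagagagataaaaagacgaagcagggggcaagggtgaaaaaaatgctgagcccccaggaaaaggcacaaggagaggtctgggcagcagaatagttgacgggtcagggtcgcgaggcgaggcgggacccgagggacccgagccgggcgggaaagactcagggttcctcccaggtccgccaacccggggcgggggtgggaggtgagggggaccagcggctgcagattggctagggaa
Wnt10b, chr15:98778101-98778400, minus strand: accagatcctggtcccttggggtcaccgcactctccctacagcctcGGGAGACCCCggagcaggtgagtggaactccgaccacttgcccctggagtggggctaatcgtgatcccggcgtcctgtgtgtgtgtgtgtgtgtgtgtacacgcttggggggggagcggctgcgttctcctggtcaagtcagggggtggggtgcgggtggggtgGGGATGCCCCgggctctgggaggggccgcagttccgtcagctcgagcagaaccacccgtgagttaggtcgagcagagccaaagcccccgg

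Genes that act on the ligands were measured next. Wls, which carries Wnt proteins to the cell surface, gave 1490.4 before injection and 1397 in tumour cells of the p65+/+ genotype, and 742 and 1889 in p65-/- cells. The p65-/- pre-injection array was the lowest, and Wls was 2.01-fold lower there than in p65+/+ cells and 2.54-fold higher in p65-/- tumour cells. Porcn, the enzyme that adds the lipid, was flat at 124 to 134. Of 22 other secreted or membrane modulators, 12 reached the floor. The p65+/+ tumour change, the p65-/- tumour change and the genotype differences before injection and in tumour cells compared 11, 12, 11 and 11 of them. In that order 1, 1, 1 and 2 were higher and 0, 1, 0 and 1 lower. The shares of all genes were 0.999%, 14.0%, 2.14% and 2.76% higher and 0.787%, 1.53%, 18.3% and 5.65% lower. Rspo2, which amplifies Wnt signalling through Lgr receptors, reached the floor in p65-/- tumour cells alone, at 276 against 29.99 to 79.9 elsewhere, at least 3.15-fold above p65-/- pre-injection and at least 2.99-fold above p65+/+ tumour cells. Serpinf1, reported to bind Lrp6, was 2.36-fold lower in p65-/- than in p65+/+ tumour cells. Igfbp4, an IGF-binding protein that also binds Lrp6 and Frizzled, was 5.90-fold higher in p65+/+ tumour than in p65+/+ pre-injection cells and 11.5-fold higher in p65-/- cells before injection.

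Of 16 alternative receptors and polarity genes, 12 reached the floor. In the same order of comparisons, 11, 11, 10 and 12 were compared. Of these 1, 2, 0 and 0 were higher and 0, 0, 2 and 1 lower, beside the shares of all genes given with the modulators. The polarity gene Prickle2 gave 266 and 320.3 in p65+/+ cells and was under the floor in p65-/- cells, at least 3.03-fold lower before injection and at least 3.45-fold lower in tumour cells. Prickle1 was higher in tumour cells of both genotypes, at least 2.07-fold in p65+/+ and at least 2.81-fold in p65-/- cells, each in 1 of 2 compared probe sets. Ror2, a receptor of Wnt5a, gave 325 and 306 in p65+/+ cells and 242 and 170.02 in p65-/- cells, with the largest log2 difference -0.85. Ryk, a further Wnt receptor, was 2.07-fold higher in p65-/- tumour than in p65-/- pre-injection cells.

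Inside the cell, the destruction complex and its regulators (24 genes, 24 at the floor on some array) had 5 of 24 lower and 1 higher in p65-/- cells before injection, beside 18.3% and 2.14% of all genes, and 4 of 23 higher and 1 lower in the p65-/- tumour change, beside 14.0% and 1.53%. In tumour cells only Apc was past 2-fold between genotypes, and in the p65+/+ tumour change none of 23 was. Apc, the scaffold of the complex, gave 496 and 677 in p65+/+ cells and 77.2 and 230.2 in p65-/- cells. It was at least 5.65-fold lower before injection, past 2-fold in 1 of 3 compared probe sets, and 2.94-fold lower in tumour cells, in 2 of 4. The tankyrase genes Tnks and Tnks2, which promote the breakdown of Axin, were 3.26-fold and 3.31-fold lower in p65-/- cells before injection and within 1.14-fold of p65+/+ cells in tumour cells. The decrease was past 2-fold in 1 of 3 compared probe sets of Tnks and 3 of 3 of Tnks2. Ctnnb1, which encodes beta-catenin, gave 5759, 5008, 3734 and 5076 in the order p65+/+ pre-injection, p65+/+ tumour, p65-/- pre-injection and p65-/- tumour and stayed under 2-fold, although 1 of its 3 probe sets was past 2-fold lower in p65-/- cells before injection. Of 12 nuclear partners, 11 reached the floor, and 11, 10, 11 and 11 were compared, in the order of comparisons used for the modulators. Of these 0, 1, 0 and 1 were higher and 0, 0, 1 and 0 lower, beside the shares of all genes given there. Tcf7l2, a DNA-binding partner of beta-catenin, was 2.25-fold higher in p65-/- tumour than in p65-/- pre-injection cells and 2.39-fold higher than in p65+/+ tumour cells, in 1 and 2 of its 4 probe sets. Tle4, a co-repressor, was at least 2.55-fold lower in p65-/- cells before injection, past 2-fold in 1 of 2 compared probe sets.

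Reported beta-catenin target genes (29 on the array, 23 at the floor, some shared with other lists) had 1 of 19 higher and 0 lower in the p65+/+ tumour change, 1 of 23 higher and 3 lower in the p65-/- tumour change, 1 of 23 higher and 2 lower in p65-/- cells before injection, and 1 of 20 higher and 2 lower in tumour cells. Their medians were 0.09, -0.05, -0.05 and -0.30 on the log2 scale, and those of all genes -0.01, 0.04, -0.02 and 0.01. Of all genes, 0.999%, 14.0%, 2.14% and 2.76% were higher and 0.787%, 1.53%, 18.3% and 5.65% lower in these comparisons. Axin2, the feedback inhibitor most used as a readout of the pathway, gave 136 and 147 in p65+/+ cells and 192 and 205 in p65-/- cells, under 2-fold in each comparison, and Lef1 ran from 401 to 449. Ccn4, a matricellular gene named for its induction by Wnt1, gave 468, 269, 257 and 1167 in the order p65+/+ pre-injection, p65+/+ tumour, p65-/- pre-injection and p65-/- tumour. Its array order was that of Dkk3, and it was 4.53-fold higher in p65-/- tumour than in p65-/- pre-injection cells and 4.35-fold higher than in p65+/+ tumour cells. Bmp4, a growth factor, was 2.40-fold lower in p65-/- cells before injection and 4.08-fold lower in tumour cells. The activin inhibitor gene Fst was 13.98-fold higher in p65+/+ tumour than in p65+/+ pre-injection cells. It was 2.03-fold lower in p65-/- tumour than in p65-/- pre-injection cells and 46.5-fold lower in p65-/- than in p65+/+ tumour cells, all in 2 of 2 probe sets. Fosl1, an AP-1 subunit, was 2.49-fold lower in p65-/- tumour than in p65-/- pre-injection cells.

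**Figure D5:**
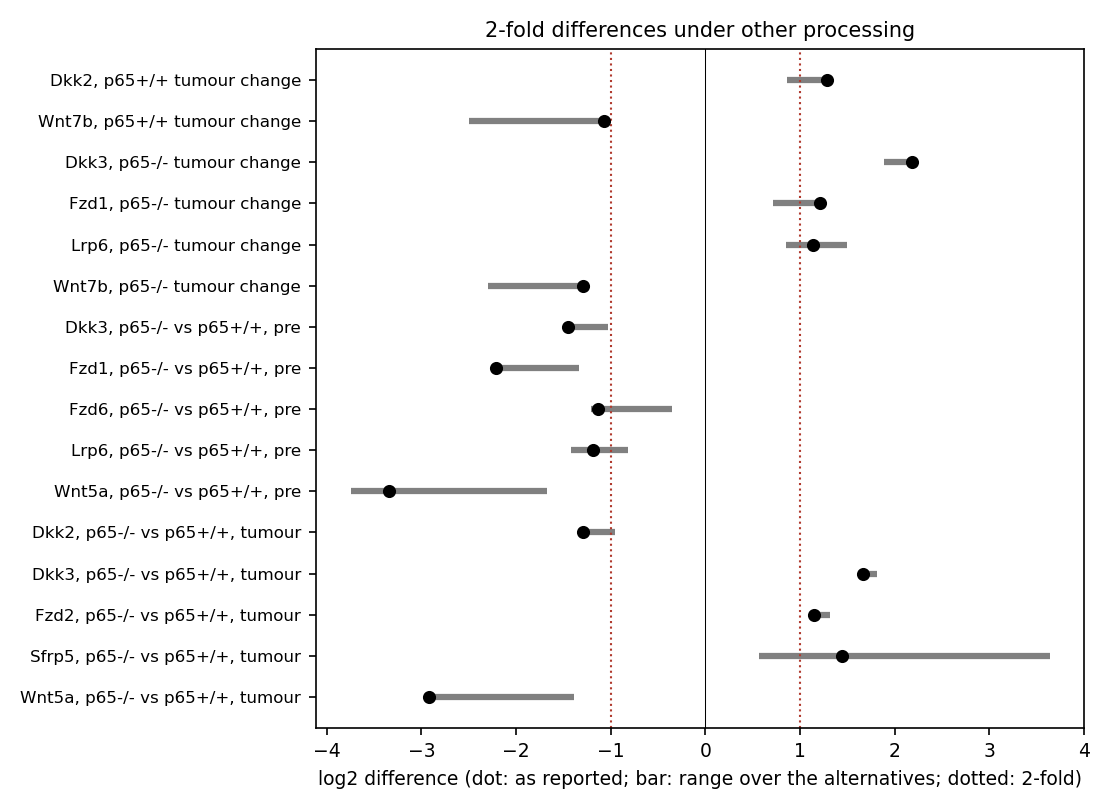
Log2 differences of the 16 member differences past 2-fold (dot) with their range over up to 9 alternative ways of processing (bar); dotted lines mark 2-fold. The ranges for Wnt5a, Wnt7b, Dkk3, Fzd2 and for Fzd1 before injection stay past 2-fold, while those of Fzd6, Lrp6, Dkk2, Sfrp5 and the p65-/- tumour change of Fzd1 cross it.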

How the data were processed

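Gene expression of 4 samples, 1 Affymetrix array in each of 4 groups, was analysed. Per the labels' protocols, Trizol was used for total RNA, of which 6 ug went into biotin labelling. The intensity values deposited by the authors are 1 linear signal for each of 45037 probe sets; probe summary and scaling are not given in the sources used here. A score table deposited by the authors as log2 ratios matched signed quotients of log2 signals within 0.02 for 70.3% to 89.1% of probe sets with both signals at 300 or more, but for only 24.1% to 37.9% of all, so how it was made is not known for most dim probe sets. It served only as an alternative, a quotient less 1 being multiplied by the lower log2 signal to give a log2 difference. The scanner intensity deposited by the authors for each array is not normalized, per the file headers; its medians were 91, 90, 78 and 79 for p65+/+ pre-injection and tumour and p65-/- pre-injection and tumour arrays.

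Signals below 1 were set to 1 and converted to log2, with no further normalization. Probe sets with 1 annotated gene (2016 platform annotation) were used, those ending in _x_at only where a gene had no other. Gene positions came from RefSeq. Genes past 2-fold were counted, with no test. The counting code was run on simulated data without noise, with differences planted in genes far above the floor. That run checks the code only and says nothing about noise, dim genes or shifts of a whole array. Members and gene lists were chosen with earlier results of these data known. Values on all arrays are given for members past 2-fold and up to 3 per role with the highest mean signal, and up to 6 genes with the largest differences were considered per further list. Wnt5b, Fzd7, Sfrp4, Ctnnb1, Axin2, Lef1 and Reck were named beyond this rule, with their values known. Alternatives were quantile, 75th percentile, median and cyclic loess (limma 3.58.1) scaling, a floor at the 70th percentile or none, other probe set rules and the score table. The number of arrays limits the precision.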

Additional observations from a re-analysis of the deposited data

Results flagged for a closer look

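Tumour changes of opposite direction in the 2 genotypes, at least 2-fold apart, were found for 6 genes. The p65-/- change minus the p65+/+ change was 3.11 on the log2 scale for Dkk3, 1.72 for Fzd1, 1.67 for Lrp6, 1.35 for Sfrp5, 1.32 for Fzd6 and -1.39 for Dkk2. Each rests on 4 single arrays, and the difference was not tested. Of all genes, 14.7% passed 2-fold upward and 2.71% downward in the same quantity, without the condition of opposite direction. The share of all genes that also met this condition was not computed. The separate changes in p65+/+ and p65-/- cells were -0.93 and 2.18 for Dkk3 and 1.28 and -0.11 for Dkk2. Second probe sets of Fzd1 and Fzd6 changed less than those used here, at -0.12 and 0.21 and at -0.24 and 0.19.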

How the results depend on the processing

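Of 16 member differences past 2-fold, those of Wnt5a (both states), Wnt7b (both genotypes), Dkk3 (3 comparisons), Fzd2 and Fzd1 before injection kept direction and 2-fold under each of the 9 processing alternatives that gave a value; the authors' deposited score table gave none for Wnt5a before injection. For the p65-/- tumour change the count of higher members was 3, and 1 after quantile normalization, 75th percentile scaling, cyclic loess or averaging of probe sets. Before injection 5 were lower in p65-/- cells, and 3 after quantile normalization or 75th percentile scaling, which left out Fzd6 (-0.74 and -0.76) and Lrp6 (-0.81 under both). These settings moved the median of all genes before injection from -0.02 to 0.24 and 0.35. With p65-/- tumour cells standing in for p65-/- pre-injection cells, chosen after seeing the data, 1 was lower and Dkk3 reversed to 0.74. Sfrp5 in tumour cells was 0.57 with the floor at the 70th percentile and 0.67 with averaged probe sets. In the authors' deposited score table, the p65+/+ tumour change had 0 higher and 8 lower, the p65-/- tumour change 5 higher and 7 lower, the genotype difference before injection 6 higher, and that in tumour cells 10 higher and 7 lower; most of that table's values for dim probe sets do not match the quotient assumed in converting it, and its shares over all genes were also higher, for example from 0.999% to 5.66%, and Dkk2 was 0.87 in the p65+/+ tumour change and -0.95 between tumour cells. The cause was not tested. The count of genes whose tumour change differs between genotypes was 6 and ran from 5 to 7. No paired analysis was possible because each group has 1 array. With 1 array per group, no spread between samples is known.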

Other observations

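A few signals under the floor differed between arrays and are given as values only. Sfrp2, a secreted decoy, gave 20.9, 22.2, 24.2 and 49.7 in p65+/+ pre-injection, p65+/+ tumour, p65-/- pre-injection and p65-/- tumour cells. Another probe set of Sfrp1 gave 7.72, 3.63, 19.5 and 64.8 in that order. Reck, a membrane protein that takes part in Wnt7 signalling in the brain, gave 72.7, 20.2, 60.9 and 123, so only the p65-/- tumour array reached the floor.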
